A study of Mus musculus with 10 samples.

Results

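Of 8694 distinct gene symbols listed in the deposited tables of RNA sequencing from mouse Mbd3 mutants, 65 were nucleosome remodellers, chromatin readers and the proteins that work with them. They were chosen by symbol alone: the Chd, Smarc, Arid, Baz, Brd, Bcl7, Phf, Ino80, Ruvbl and Hmg series, the HP1 genes Cbx1, Cbx3 and Cbx5, and Bptf, Atrx, Hells, Ep400, Srcap, Actl6 and Pbrm1. Chd4, Chd5, Phf1 and Phf19 were set aside by the same rule. Chromatin remodellers are motor proteins that spend ATP to slide, eject or exchange nucleosomes. The CHD, SWI/SNF, ISWI and INO80 classes each pair a motor with their own subunits, and bromodomains, PHD fingers and chromodomains bind modified histone tails. HMG proteins have no motor and bend DNA or loosen nucleosome packing. Mbd3 belongs to NuRD, a complex that joins a CHD motor to histone deacetylases. The symbol rule is broader than its name: Phf5a is a splicing factor subunit and Smarca5-ps is annotated as a pseudogene.

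All cells were of the E14 mouse embryonic stem line, grown on gelatin. The groups were Mbd3abc KO (Mbd3abc -/-, mutated in exon 5), Mbd3cΔN-ab KO (Mbd3cdeltaN; ab-/-, mutated in exon 2), Mbd3ab KO (Mbd3ab -/-, exon 2), Mbd3c KO (Mbd3c -/-, intron 2) and wild type (WT), and the mutations were made with CRISPR/Cas9. Each group had 2 libraries, labelled biological replicates. The deposited columns carry a separate name for each mutant library, but no source used here states whether these are clones, so the spread between them may be technical in part. The same 2 WT libraries served every comparison, so the 4 comparisons are not independent of each other. Each table lists the genes the authors called with DESeq2 and very few others, and a gene that is not listed has no value here. Mbd3 RNA was 13.0-fold lower than in WT in Mbd3abc KO, 5.57-fold lower in Mbd3cΔN-ab KO and 2.61-fold lower in Mbd3ab KO, and it was not listed in the Mbd3c KO table. Of 10 stem cell markers, 3 rose and 3 fell in Mbd3abc KO, and 1 rose and 4 fell in Mbd3cΔN-ab KO, where 52.1% and 41.5% of all genes tested were called. Among them the core pluripotency factor Pou5f1 averaged 3731 ± 1295 normalized reads in Mbd3abc KO and 11258 ± 552 in WT, and Sox2 averaged 5520 ± 706 in Mbd3abc KO and 3942 ± 97.9 in WT (SD, n = 2 each). Of 10 fibroblast markers, Thy1 rose and Col1a1 fell in both of these mutants. In bulk RNA, a change in the share of cells of a kind and a change in RNA per cell cannot be told apart, and the part of these markers in the results below was not tested. Relative to the first WT library, library depths ran from 0.485 to 1.59.

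The promoters of 4 members are shown because these genes carry contrasts described below. The paralogous SWI/SNF motors Smarca2 and Smarca4 moved in opposite directions in Mbd3abc KO, the only mutant where Smarca2 was listed. The Smarca2 rise was measured against 6 and 11 WT reads, and its call was lost without any of the 4 libraries. Smarca1 is the ISWI motor that rose most, and Hmga2 was the member called in 3 tables. All 4 members were picked after their values were seen. The sequences are from RefSeq on GRCm38.p6, 250 bases before to 50 after the annotated start, 5′ to 3′ on the gene's strand, with each CG dinucleotide in capitals. They lie at chr19:26604910-26605209 (plus strand, Smarca2), chr9:21615919-21616218 (plus strand, Smarca4), chrX:47892564-47892863 (minus strand, Smarca1) and chr10:120476420-120476719 (minus strand, Hmga2).
Smarca2: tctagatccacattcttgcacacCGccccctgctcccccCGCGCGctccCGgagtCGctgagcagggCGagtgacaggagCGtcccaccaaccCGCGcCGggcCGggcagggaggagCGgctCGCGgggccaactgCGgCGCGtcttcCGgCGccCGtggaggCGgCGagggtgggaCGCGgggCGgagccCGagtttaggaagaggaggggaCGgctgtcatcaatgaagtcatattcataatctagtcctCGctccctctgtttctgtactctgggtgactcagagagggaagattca
Smarca4: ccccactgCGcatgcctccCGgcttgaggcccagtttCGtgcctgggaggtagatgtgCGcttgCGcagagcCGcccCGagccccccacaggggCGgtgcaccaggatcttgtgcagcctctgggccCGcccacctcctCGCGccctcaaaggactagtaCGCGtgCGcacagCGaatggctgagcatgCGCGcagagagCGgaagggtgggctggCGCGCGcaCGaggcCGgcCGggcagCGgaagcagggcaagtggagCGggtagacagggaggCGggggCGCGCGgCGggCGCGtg
Smarca1: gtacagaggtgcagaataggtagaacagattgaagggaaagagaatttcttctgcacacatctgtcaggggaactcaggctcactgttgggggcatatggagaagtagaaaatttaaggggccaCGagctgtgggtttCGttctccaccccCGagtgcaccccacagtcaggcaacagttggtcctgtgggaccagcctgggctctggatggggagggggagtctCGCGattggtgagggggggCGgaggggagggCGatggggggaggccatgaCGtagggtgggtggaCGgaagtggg
Hmga2: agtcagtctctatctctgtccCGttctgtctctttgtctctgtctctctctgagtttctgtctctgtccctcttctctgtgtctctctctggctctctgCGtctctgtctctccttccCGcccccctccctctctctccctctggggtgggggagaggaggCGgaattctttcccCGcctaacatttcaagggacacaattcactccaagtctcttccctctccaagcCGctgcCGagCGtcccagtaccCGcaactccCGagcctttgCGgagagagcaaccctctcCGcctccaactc
The motif searched was CG, which reads the same on both strands, and 94.6% of 32851 promoters in the same table hold it at least 1 time. Smarca2 had 29 and Smarca4 had 33 CG dinucleotides in this window, Smarca1 had 9 and Hmga2 had 12. Of all promoters, 87.1% held fewer than Smarca2, 91.4% fewer than Smarca4, 54.2% fewer than Smarca1 and 60.4% fewer than Hmga2. The annotated start used lay 61 bases before the start of the deposited transcript for Smarca1 and 466 bases after it for Hmga2. For Smarca2 and Smarca4 it lay at the same base. The printed Hmga2 window thus lies wholly inside the span of the deposited transcript, downstream of that transcript's start.

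More of the called members rose than fell in both strong mutants, Mbd3abc KO and Mbd3cΔN-ab KO. This did not hold among members above the median level in Mbd3cΔN-ab KO. In Mbd3abc KO 38 members rose and 23 fell at an adjusted p under 0.05 in the authors' deposited table, beside 27.1% of all 15622 genes tested that rose and 24.9% that fell. In Mbd3cΔN-ab KO 28 rose and 19 fell in the authors' deposited table, beside 21.1% and 20.4% of 14429 genes tested. Among members above the median level of the table, 26 rose and 22 fell in Mbd3abc KO, and 16 rose and 17 fell in Mbd3cΔN-ab KO. Of all called genes above that level, 1928 rose and 2138 fell in Mbd3abc KO, and 1301 rose and 1696 fell in Mbd3cΔN-ab KO. Of 96 protein-coding symbols in RefSeq that meet the rule, 59 were called in Mbd3abc KO (61.5%) and 45 in Mbd3cΔN-ab KO (46.9%), against 52.1% and 41.5% of all genes tested. How many of the 96 the authors tested is unknown. The other 33 protein-coding symbols were listed in no table, among them Chd2, Chd6, Chd8, Ino80, Srcap, Bptf, Brd3, Smarce1 and Cbx5. In Mbd3ab KO the count was 1 member higher, Hmga2, beside 2.05% of 13201 genes tested, and none lower, beside 1.3% (3.35% in either direction). In Mbd3c KO no member was called, beside 38 of 10759 genes tested (0.353%, of which 0.316% higher and 0.0372% lower), and unadjusted p-values of the members are not available there. Among called members, 62.3% were higher in Mbd3abc KO and 59.6% in Mbd3cΔN-ab KO, against 52.1% and 50.9% of all called genes. The median deposited log2 fold change of called members was 0.72 in Mbd3abc KO and 0.75 in Mbd3cΔN-ab KO, against 0.46 and 0.37 over all called genes.

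Both groups of libraries stood apart for every called member, and so they did for all called genes of these tables (100%). Many calls were lost when a WT library was left out. The spread within groups can then be measured in the mutant libraries only. The loss of a call there does not show that it depended on the WT values, and its cause was not tested. When the listed genes were tested again with DESeq2 without the first WT library, 23 members rose and 9 fell in Mbd3abc KO, and 18 rose and 6 fell in Mbd3cΔN-ab KO. Without the second WT library, 26 rose and 7 fell in Mbd3abc KO, and 15 rose and 5 fell in Mbd3cΔN-ab KO. Without either the first or the second Mbd3cΔN-ab KO library, 12 fell in that mutant. The direction of every member was the same in every refit. In Mbd3abc KO, 23 rises and 7 falls were called in all 8 refits. The rises were those of Chd1, Chd9, Pbrm1, Smarca1, Smarca5, Baz1a, Baz2b, Atrx, Hells, Smarcad1, Cbx3, Hmga2, Hmgb1, Hmgb2, Hmgb3, Hmgn3, Phf3, Phf6, Phf11d, Phf14, Phf20l1, Arid4a and Arid4b. Among the falls were those of Smarca4, Arid1a, Smarcb1, Ruvbl1, Ruvbl2 and Hmga1. In Mbd3cΔN-ab KO the corresponding counts were 15 and 5. The rises there were those of Pbrm1, Smarca1, Smarca5, Baz2b, Atrx, Hells, Smarcad1, Cbx3, Hmga2, Hmgb1, Hmgb2, Phf3, Phf11d, Phf14 and Arid4b, and among the falls were those of Chd3, Smarcb1, Ruvbl2 and Hmga1.

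**Figure D1:**
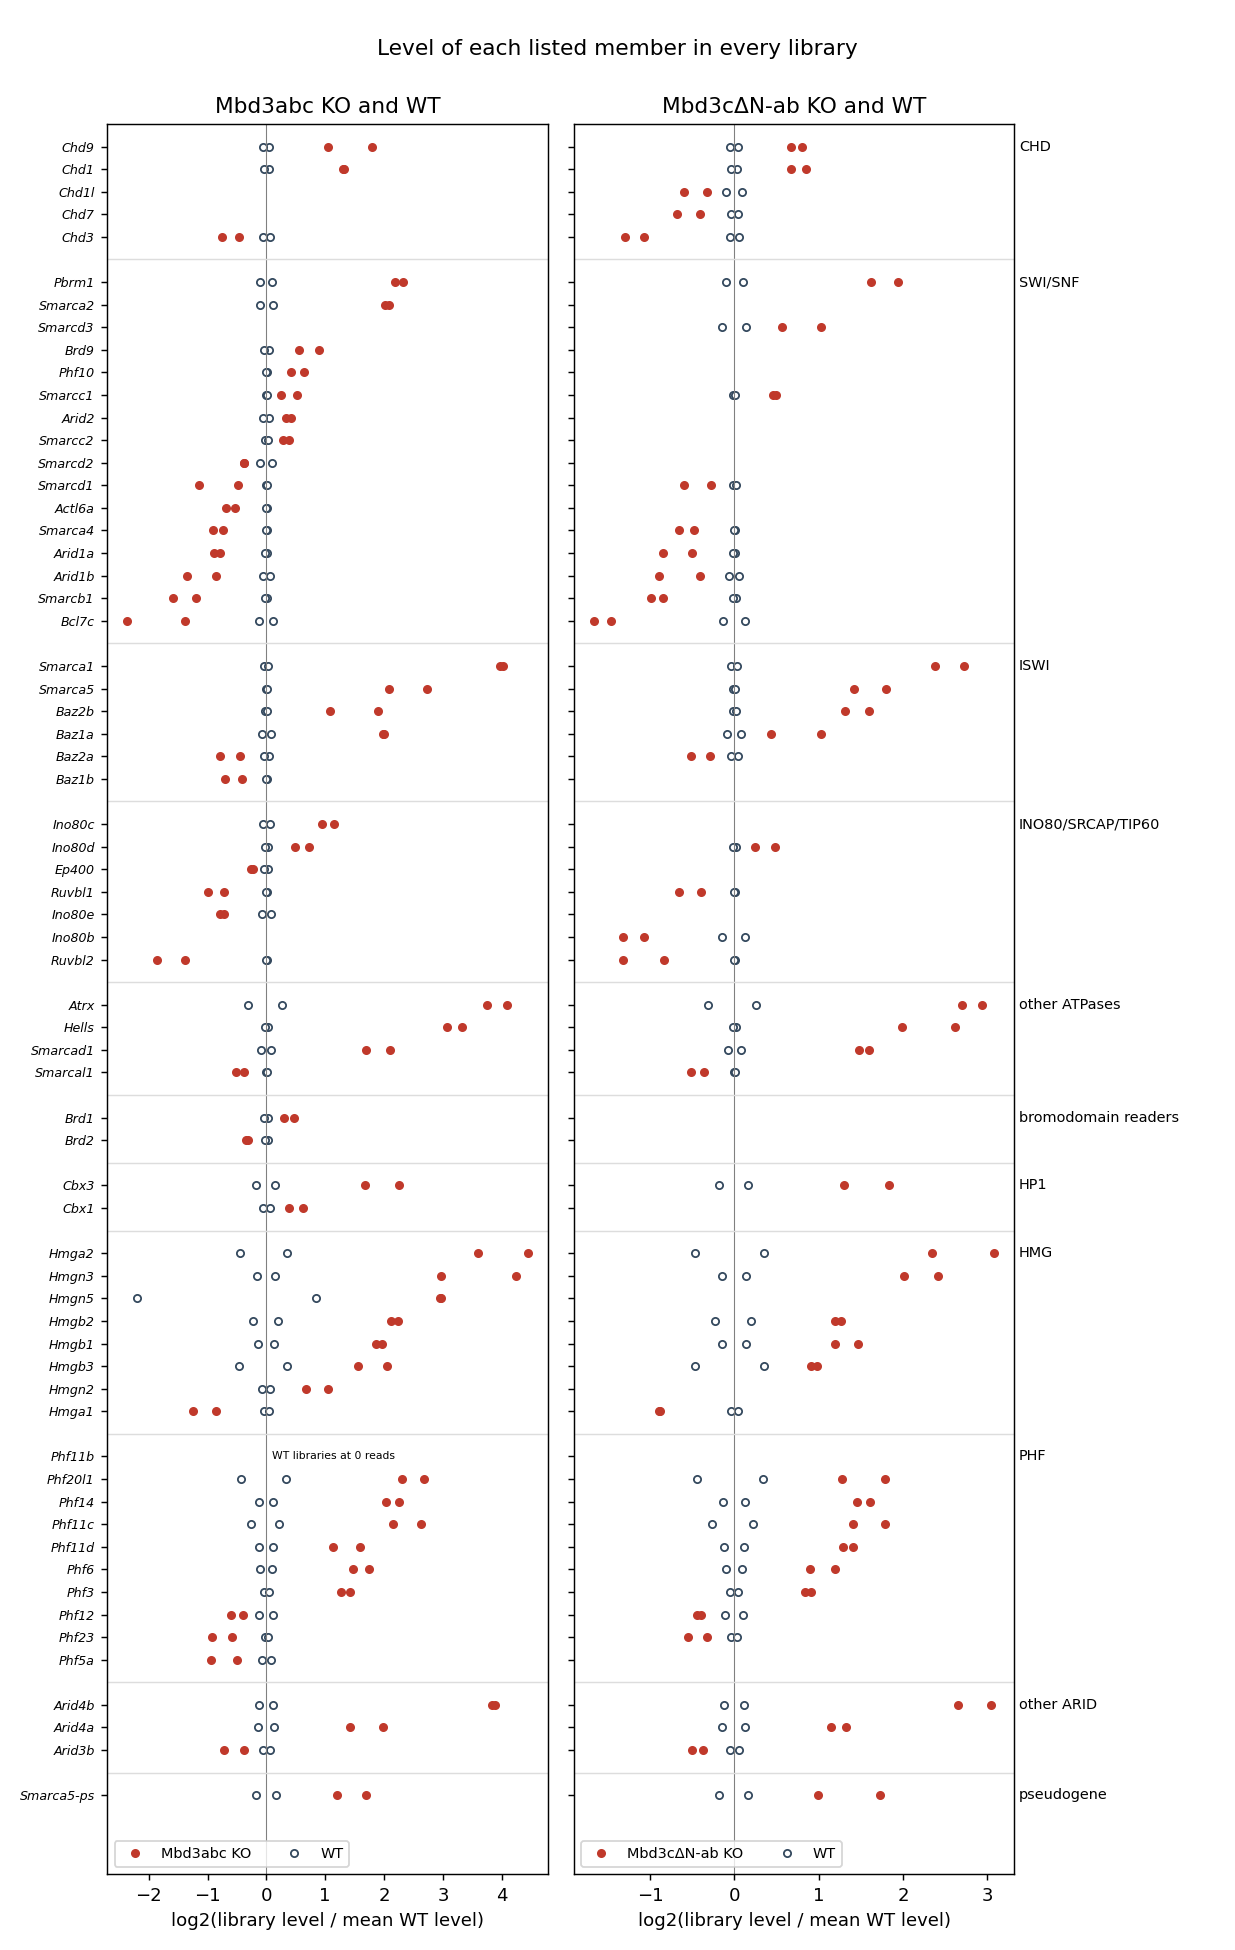
Each point is a library, placed by the log2 ratio of its normalized reads to the mean of the WT libraries of the same table, with mutant libraries filled and WT libraries open. Members reported by name run down the page by family, and a gene with no points in a panel was not listed in that table. Among the filled points of the Mbd3abc KO libraries, those of Hmga2, Hmgn3, Atrx and Smarca1 lie farthest right, and those of Bcl7c and Ruvbl2 farthest left.

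Most of the called members were shared between the strong mutants. Of the called members 43 were shared, which is 70.5% of the Mbd3abc KO list and 91.5% of the Mbd3cΔN-ab KO list, against 67.6% and 91.7% for all called genes. Of these 27 rose in both, 16 fell in both and 0 moved in opposite directions, and the shared WT libraries enter both counts. Called in Mbd3abc KO and not listed in Mbd3cΔN-ab KO were 18 members, and 4 (Chd7, Chd1l, Ino80b and Smarcd3) showed the reverse.

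The motors outside the large complexes had the highest median log2 fold change of the families with at least 3 called members, 2.52 in Mbd3abc KO and 1.86 in Mbd3cΔN-ab KO, in the authors' deposited tables. Atrx, which deposits a histone variant at heterochromatin and is mutated in an X-linked intellectual disability syndrome, had 4953 and 3922 normalized reads in Mbd3abc KO, against 348 and 233 in WT. Both mutant libraries lay far above both WT libraries, a 15.3-fold rise, with a log2 fold change of 3.78 ± 0.27 (SE) and adjusted p = 3.22e-42 in the authors' deposited table. In Mbd3cΔN-ab KO Atrx had 1802 and 2109 normalized reads, against 330 and 223 in WT, a 7.08-fold rise. Hells, a helicase needed for DNA methylation of repeats, had 5420 and 6476 normalized reads in Mbd3abc KO, against 655 and 632 in WT. That was a 9.24-fold rise, and the DESeq2 log2 fold change in the authors' deposited table was 3.17 ± 0.16 (SE, adjusted p = 4.21e-85). The same gene had 2438 and 3772 normalized reads in Mbd3cΔN-ab KO, against 622 and 604 in WT, a 5.07-fold rise. Smarcad1, which helps restore heterochromatin after replication, rose 3.77-fold in Mbd3abc KO and 2.91-fold in Mbd3cΔN-ab KO. Smarcal1, an annealing helicase of stalled replication forks, fell 1.36-fold in each. Its call was lost without any of the 4 libraries, with the largest DESeq2 adjusted p at 0.508 in Mbd3abc KO and 0.633 in Mbd3cΔN-ab KO.

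The ISWI motors rose together while some of their partner subunits fell. Smarca1 had 429 and 410 normalized reads in Mbd3abc KO, against 25.7 and 26.9 in WT, and 166 and 130 in Mbd3cΔN-ab KO, against 24.4 and 25.7 in WT. These are rises of 15.9-fold and 5.91-fold, with log2 fold changes of 3.86 ± 0.25 and 2.32 ± 0.31 (SE) in the authors' deposited tables. Its adjusted p from DESeq2 in the authors' deposited tables was 8.83e-52 in Mbd3abc KO and 1.55e-12 in Mbd3cΔN-ab KO. Smarca5, the main ISWI motor of stem cells and early embryos, had 5307 and 8277 normalized reads in Mbd3abc KO, against 1249 and 1263 in WT, a 5.41-fold rise. It rose 3.08-fold in Mbd3cΔN-ab KO, with 3197 and 4170 normalized reads, against 1185 and 1207 in WT. Per length, Smarca1 stood at 7.47% ± 2.53 of the level of Smarca5 in Mbd3abc KO and at 2.40% ± 0.0571 in WT (SD, n = 2 each). Of the partners, Baz1a, the ACF subunit that sets nucleosome spacing, rose 3.97-fold in Mbd3abc KO and 1.70-fold in Mbd3cΔN-ab KO, and Baz2b rose 2.92-fold and 2.76-fold. The Baz1a call in Mbd3cΔN-ab KO was lost without either WT library and without the first mutant library, with adjusted p up to 0.384 by DESeq2. Baz2a, which silences ribosomal RNA genes, fell 1.52-fold in Mbd3abc KO and 1.31-fold in Mbd3cΔN-ab KO, and Baz1b fell 1.46-fold in Mbd3abc KO. These falls were lost without either WT library, with DESeq2 adjusted p up to 0.180 and 0.504 for Baz2a and 0.243 for Baz1b. The pseudogene Smarca5-ps rose 2.76-fold and 2.66-fold, and its reads may come in part from Smarca5, which it resembles. Its calls were lost without the first WT library or the first mutant library, and in Mbd3cΔN-ab KO also without the second WT library.

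SWI/SNF was the family with the most called members, and they moved in both directions. In Mbd3abc KO 7 of its members rose and 8 fell, and in Mbd3cΔN-ab KO 3 rose and 6 fell. Smarca4, the motor of the stem cell form of the complex, had 3191 and 3608 normalized reads in Mbd3abc KO, against 6051 and 5958 in WT. It fell 1.77-fold there, with a log2 fold change of -0.81 ± 0.12 (SE) and adjusted p = 3.39e-10 in the authors' deposited table, and all libraries of the groups stood apart. In Mbd3cΔN-ab KO it fell 1.48-fold, to 4116 and 3616 normalized reads, against 5743 and 5694 in WT, and that call was lost without either WT library, with DESeq2 adjusted p up to 0.164. Its paralog Smarca2 had 33.8 and 35.3 normalized reads in Mbd3abc KO, against 7.73 and 8.98 in WT, which came from 6 and 11 reads. That 4.14-fold rise had a log2 fold change of 1.77 ± 0.47 (SE) and adjusted p = 0.000495 in the authors' deposited table, and it was lost without any of the 4 libraries, with DESeq2 adjusted p up to 0.272. Even so, Smarca2 reached only 1.12% ± 0.0637 of the level of Smarca4 per length in Mbd3abc KO, against 0.153% ± 0.0178 in WT (SD, n = 2 each). The deposited transcripts of the pair span chr19:26605160-26778321 (Smarca2) and chr9:21616169-21704230 (Smarca4), on the plus strand of mm10.

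Pbrm1 rose and Arid1a, which sits in another form of the complex, fell. Pbrm1, the polybromo subunit of PBAF, had 2469 and 2695 normalized reads in Mbd3abc KO, against 579 and 500 in WT. It rose 4.78-fold there and 3.45-fold in Mbd3cΔN-ab KO, where it had 1575 and 1973 normalized reads, against 550 and 478 in WT. The log2 fold changes were 2.24 ± 0.15 and 1.73 ± 0.19 (SE) in the authors' deposited tables. Arid1a, the large DNA-binding subunit of BAF, had 3831 and 4097 normalized reads in Mbd3abc KO, against 7157 and 6990 in WT, and fell 1.78-fold. It fell 1.59-fold in Mbd3cΔN-ab KO, a call lost without either WT library, with DESeq2 adjusted p up to 0.101. Per length, Pbrm1 stood at 65.7% ± 0.959 of Arid1a in Mbd3abc KO, at 42.2% ± 0.303 in Mbd3cΔN-ab KO and at 7.69% ± 0.671 in WT (SD, n = 2 each). The alternative BAF subunit Arid1b fell 2.11-fold in Mbd3abc KO and 1.55-fold in Mbd3cΔN-ab KO. It was no longer called in Mbd3abc KO without the second WT library, where DESeq2 gave an adjusted p of 0.0528, and in Mbd3cΔN-ab KO without either WT library or the second mutant library (up to 0.423). The other PBAF subunits Arid2 and Phf10 rose 1.30-fold and 1.45-fold in Mbd3abc KO, and Brd9, of the non-canonical form, rose 1.66-fold. These 3 calls were lost without either WT library, among others, with DESeq2 adjusted p up to 0.592, 0.299 and 0.343.

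Of the Smarcb, Smarcc and Smarcd subunits, 3 fell and 2 rose in Mbd3abc KO, and 2 fell and 2 rose in Mbd3cΔN-ab KO. Smarcb1, which anchors the complex to the nucleosome, had 629 and 823 normalized reads in Mbd3abc KO, against 1904 and 1856 in WT. It fell 2.59-fold, with a log2 fold change of -1.34 ± 0.19 (SE) and adjusted p = 4.22e-11 in the authors' deposited table, and fell 1.89-fold in Mbd3cΔN-ab KO. Bcl7c, an accessory subunit, fell 3.46-fold in Mbd3abc KO, to 40.6 and 80.1 normalized reads, against 191 and 227 in WT, and 2.95-fold in Mbd3cΔN-ab KO. It was the largest fall by ratio among called members in both mutants, and both calls were lost without the second WT library, with DESeq2 adjusted p of 0.0578 and 0.129. The scaffold Smarcc1, the highest of the family per length over all libraries, rose 1.31-fold in Mbd3abc KO and 1.39-fold in Mbd3cΔN-ab KO. It lost its call without either WT library in both, with DESeq2 adjusted p up to 0.444 and 0.266. The remaining subunits moved by 1.76-fold or less: Smarcd1 fell 1.71-fold and 1.35-fold, Smarcd2 fell 1.30-fold, Actl6a, an actin-like subunit shared with INO80, fell 1.53-fold and Smarcc2 rose 1.26-fold in Mbd3abc KO. Smarcd3 rose 1.76-fold in Mbd3cΔN-ab KO. Each of these 6 calls was lost without either WT library, and Smarcc2 was called in none of 8 refits. With all libraries kept, the DESeq2 refit also lost Smarcc1 and Smarcd2 in Mbd3abc KO and Smarcd3 in Mbd3cΔN-ab KO.

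**Figure D2:**
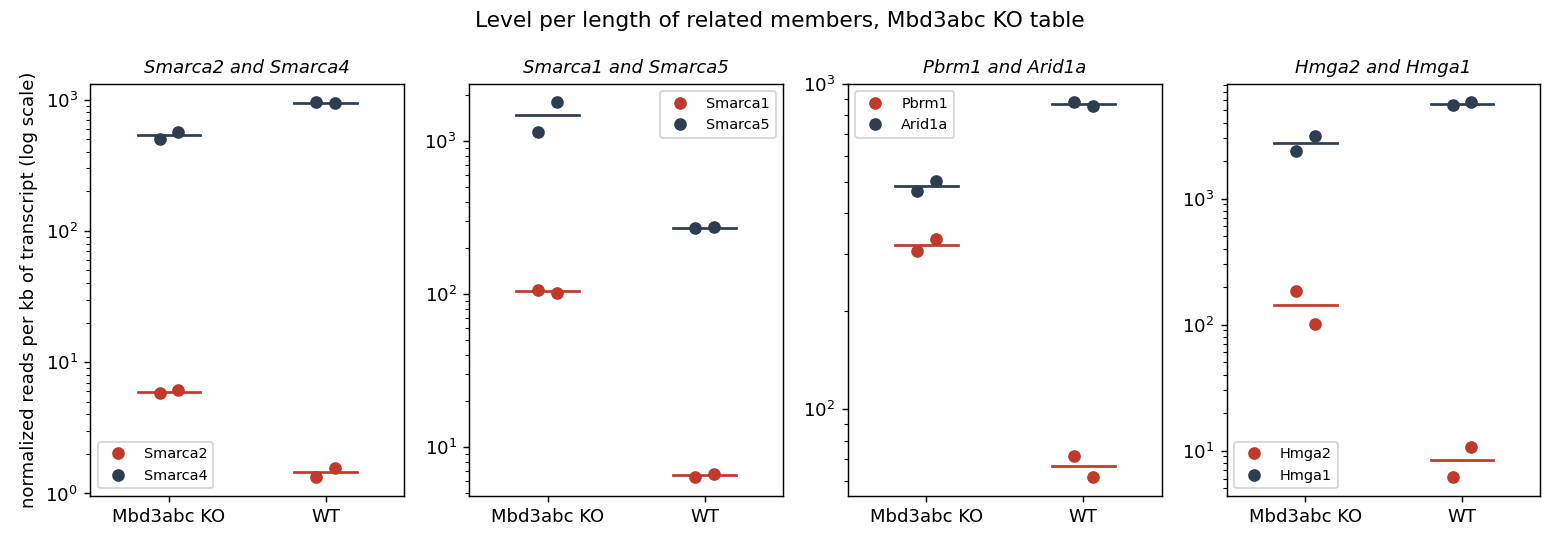
Points are libraries and lines group means of normalized reads per kb of transcript on a log scale, for 4 pairs of related members in the Mbd3abc KO table, with Mbd3abc KO left of WT. The gap within each pair was smaller in Mbd3abc KO: Pbrm1 stood at 65.7% of Arid1a in Mbd3abc KO and at 7.69% in WT, and Hmga2 at 5.52% of Hmga1 in Mbd3abc KO and at 0.149% in WT.

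The CHD motors split by gene. Chd1, which binds methylated histone tails at active genes and keeps stem cell chromatin open, had 3318 and 3367 normalized reads in Mbd3abc KO, against 1384 and 1308 in WT. It rose 2.48-fold, with a log2 fold change of 1.31 ± 0.10 (SE) and adjusted p = 7.90e-37 in the authors' deposited table. In Mbd3cΔN-ab KO it rose 1.69-fold, and that call was lost without the second WT library (DESeq2 adjusted p = 0.0716). Chd9 rose 2.77-fold in Mbd3abc KO and 1.67-fold in Mbd3cΔN-ab KO, the second call being lost without either WT library (DESeq2 adjusted p up to 0.0988). Chd3, an alternative motor of NuRD, had 260 and 305 normalized reads in Mbd3cΔN-ab KO, against 662 and 617 in WT, a 2.27-fold fall. In Mbd3abc KO it fell 1.52-fold, to 487 and 398 normalized reads, against 698 and 646 in WT, and its call was lost without either WT library or the second mutant library, with DESeq2 adjusted p up to 0.365. Chd7, an enhancer-bound motor, fell 1.46-fold and Chd1l, which responds to DNA damage, fell 1.37-fold in Mbd3cΔN-ab KO, where both calls were lost without either WT library (DESeq2 adjusted p up to 0.393 and 0.825).

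Of the INO80, SRCAP and TIP60 group, 2 members rose and 4 fell in Mbd3abc KO, and 1 rose and 3 fell in Mbd3cΔN-ab KO. Ruvbl2, a ring ATPase shared by these complexes, had 1111 and 1547 normalized reads in Mbd3abc KO, against 4048 and 3993 in WT. It fell 3.03-fold, with a log2 fold change of -1.56 ± 0.22 (SE) and adjusted p = 1.11e-11 in the authors' deposited table, and fell 2.08-fold in Mbd3cΔN-ab KO. Its partner Ruvbl1 fell 1.80-fold and 1.43-fold, the second of these being lost without either WT library (DESeq2 adjusted p up to 0.320). Ep400, the motor of the TIP60 complex, had 3860 and 3743 normalized reads in Mbd3abc KO, against 4599 and 4399 in WT, and its 1.18-fold fall was called in none of 8 refits. Of the INO80 subunits, Ino80c rose 2.06-fold and Ino80d 1.52-fold in Mbd3abc KO, while Ino80e fell 1.68-fold. Ino80b fell 2.28-fold in Mbd3cΔN-ab KO, at 15.6 and 18.6 normalized reads, against 35.4 and 42.9 in WT, and Ino80d rose 1.29-fold there. All 5 of these calls were lost without either WT library. From a list of 20 other subunits of these complexes, 7 rose and 8 fell in Mbd3abc KO and 6 rose and 6 fell in Mbd3cΔN-ab KO, beside 52.1% and 41.5% of all genes tested that were called in either direction. The actin-related subunit Actr6 rose 3.02-fold and Tfpt fell 2.30-fold in Mbd3abc KO. From 11 symbols of other SWI/SNF subunits 2 rose and 3 fell in Mbd3abc KO. Gltscr1 and Gltscr1l stand in that list under their newer symbols too, so it covers fewer than 11 genes. Bcl11b, a BAF subunit and transcription factor, rose 12.8-fold in Mbd3abc KO and 4.33-fold in Mbd3cΔN-ab KO. Its WT level was low, so both folds rest on few WT reads. It averaged 80.5 ± 31.9 normalized reads in Mbd3abc KO (SD, n = 2), against 6.31 in WT. In Mbd3cΔN-ab KO it averaged 26.0 ± 9.20, against the same WT libraries. Results for Bcl11b without each library are not reported here. Ss18, another BAF subunit, rose 1.53-fold and Dpf1, a neuronal BAF subunit, fell 3.29-fold in Mbd3abc KO. From 6 other ISWI partners Rsf1 rose 3.45-fold and Cecr2 fell 1.25-fold there. In Mbd3cΔN-ab KO 2 of those SWI/SNF subunits rose and 1 fell, and Rsf1 rose 2.78-fold while Cecr2 fell 1.26-fold.

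HMG proteins gave some of the largest changes and the only member called in 3 mutants. Hmga2, an embryonic HMG protein that is scarce in adult tissue, had 768 and 425 normalized reads in Mbd3abc KO, against 25.7 and 44.9 in WT. In Mbd3cΔN-ab KO it had 285 and 171 normalized reads, against 24.4 and 42.9 in WT, and in Mbd3ab KO 176 and 104, against 22.1 and 39.0 in WT. The groups did not overlap in any of the 3, and the WT values come from the same 20 and 55 reads. These are rises of 16.9-fold, 6.78-fold and 4.58-fold, with log2 fold changes of 3.65 ± 0.42, 2.33 ± 0.38 and 1.64 ± 0.36 (SE) in the authors' deposited tables. The DESeq2 adjusted p in the authors' deposited tables was 2.75e-17 in Mbd3abc KO, 1.55e-08 in Mbd3cΔN-ab KO and 0.000754 in Mbd3ab KO. The call in Mbd3ab KO was lost with limma, with all libraries and without any of the 4, although its unadjusted p was under 0.05 each time. The 3 mutants were compared with the same WT libraries and the size of the rise was not tested between Mbd3ab KO and the others.

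**Figure D3:**
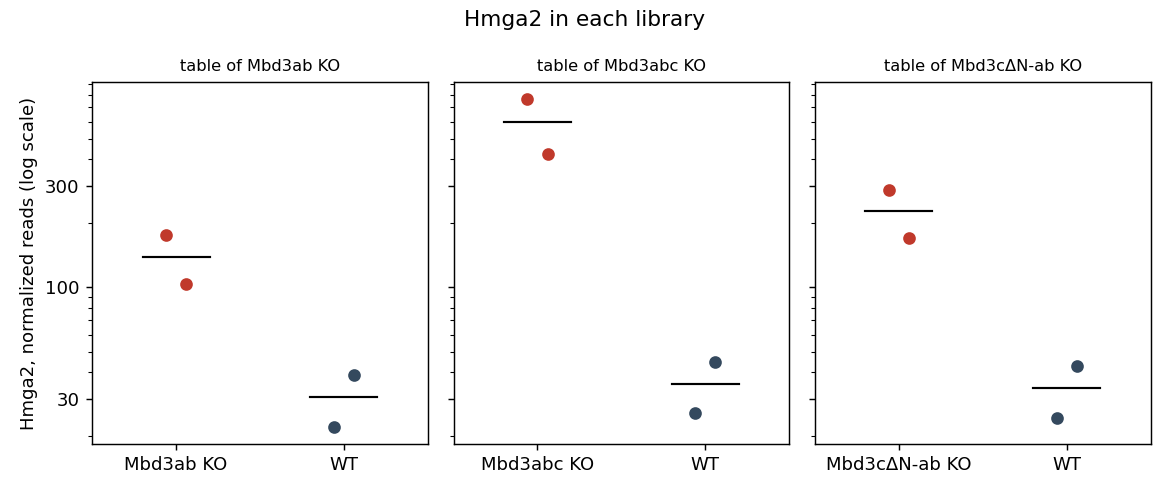
Points are libraries and black lines are group means of Hmga2 in normalized reads on a log scale, with each mutant left of the WT libraries of its own table. Mutant libraries lie between 104 and 768 normalized reads, and WT libraries between 22.1 and 44.9.

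The related Hmga1 went the other way. It had 4738 and 6217 normalized reads in Mbd3abc KO, against 10998 and 11579 in WT, and 5768 and 5842 in Mbd3cΔN-ab KO, against 10438 and 11066 in WT, falls of 2.06-fold and 1.85-fold. Per length, Hmga2 stood at 5.52% ± 3.18 of Hmga1 in Mbd3abc KO, at 1.89% ± 0.683 in Mbd3cΔN-ab KO and at 0.149% ± 0.0520 in WT (SD, n = 2 each). Hmgb1, an abundant DNA-bending protein, had 8470 and 9106 normalized reads in Mbd3abc KO, against 2121 and 2555 in WT, a 3.76-fold rise, and rose 2.52-fold in Mbd3cΔN-ab KO. Hmgb2, which is high in dividing cells, had 5023 and 5457 normalized reads in Mbd3abc KO, against 1330 and 984 in WT, a 4.53-fold rise, and rose 2.34-fold in Mbd3cΔN-ab KO. Hmgb3 rose 3.54-fold and 1.93-fold, the second call being lost without any of the 4 libraries (DESeq2 adjusted p up to 0.699). Hmgn3, a nucleosome-binding HMG protein, had 155 and 63.9 normalized reads in Mbd3abc KO, against 9.01 and 7.34 in WT, a 13.4-fold rise, and 31.3 and 41.5 in Mbd3cΔN-ab KO, against 8.55 and 7.02 in WT, a 4.68-fold rise. Its call in Mbd3cΔN-ab KO was lost without any of the 4 libraries (DESeq2 adjusted p up to 0.359). Hmgn5 had 46.4 and 45.8 normalized reads in Mbd3abc KO, against 1.29 and 10.6 in WT, and lost its call without the first WT library or either mutant library (DESeq2 adjusted p up to 0.142). Hmgn2 rose 1.83-fold in Mbd3abc KO, a call lost without the first WT library (DESeq2 adjusted p = 0.0768). Hmga1, Hmgb1 and Hmgn2 have similar sequences elsewhere in the genome, and no source used here states how the authors' counting shared reads among them.

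Among readers of histone marks, HP1 genes and several PHD finger genes rose. Cbx3, HP1 gamma, had 1870 and 2787 normalized reads in Mbd3abc KO, against 520 and 652 in WT, a 3.97-fold rise, and it rose in Mbd3cΔN-ab KO too, with 1369 and 1984 normalized reads, against 494 and 623 in WT. Cbx1, HP1 beta, rose 1.42-fold in Mbd3abc KO, lost without either WT library among others (DESeq2 adjusted p up to 0.437). Per length Cbx1 stood at 55.1% ± 9.39 of Cbx3 in Mbd3abc KO and at 153% ± 33.4 in WT (SD, n = 2 each). The order of these HP1 genes was thus turned round in Mbd3abc KO, in both libraries of each group. Of the bromodomain readers, Brd1, a scaffold of histone acetyltransferases, rose 1.31-fold and the BET protein Brd2 fell 1.25-fold in Mbd3abc KO, and both calls were lost without either WT library or the first mutant library (DESeq2 adjusted p up to 0.512 and 0.609).

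PHD finger genes rose in 7 cases and fell in 3 in Mbd3abc KO, and rose in 6 and fell in 2 in Mbd3cΔN-ab KO. Phf20l1, which binds methylated lysines, had 223 and 172 normalized reads in Mbd3abc KO, against 25.7 and 44.0 in WT, a 5.66-fold rise, and rose 2.93-fold in Mbd3cΔN-ab KO. Phf14 rose 4.43-fold and 2.89-fold, Phf6, a nucleolar protein, 3.07-fold and 2.08-fold, and Phf3, which docks on RNA polymerase II, 2.54-fold and 1.84-fold. In Mbd3cΔN-ab KO the Phf20l1 call was lost without either WT library or the second mutant library (DESeq2 adjusted p up to 0.361), and that of Phf6 without the second WT library (0.0907). The neighbours Phf11d and Phf11c on chromosome 14 rose 2.61-fold and 5.30-fold in Mbd3abc KO, and reads among these similar genes are uncertain. The third, Phf11b, had 16 and 6 reads in Mbd3abc KO and 0 in both WT libraries, at least 7.07-fold higher against a floor of 3 reads over both WT libraries. The calls of Phf11b and Phf11c were lost without any of the 4 libraries (DESeq2 adjusted p up to 0.510 and 0.216). The Sin3 subunit Phf12 fell 1.41-fold and 1.34-fold, Phf23, highest of these genes per length over all libraries, fell 1.67-fold and 1.35-fold, and Phf5a fell 1.64-fold in Mbd3abc KO, all lost without either WT library. Arid4b, another subunit of Sin3 deacetylase complexes, had 801 and 779 normalized reads in Mbd3abc KO, against 59.2 and 49.7 in WT, a 14.5-fold rise. It had 327 and 429 normalized reads in Mbd3cΔN-ab KO, against 56.2 and 47.5 in WT, a 7.29-fold rise, and its paralog Arid4a rose 3.33-fold and 2.37-fold. Arid4a lost its call in Mbd3cΔN-ab KO without the second WT library (DESeq2 adjusted p = 0.0580). Arid3b, a DNA-binding ARID factor, fell 1.45-fold and 1.35-fold, both lost without either WT library or the second mutant library (DESeq2 adjusted p up to 0.403 and 0.630).

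From a list of 16 histone chaperones, 7 rose and 5 fell in Mbd3abc KO, where 52.1% of all genes tested were called. In Mbd3cΔN-ab KO, where 41.5% of all genes tested were called, 5 rose and 6 fell. Nap1l1 rose 3.45-fold and Hira fell 2.65-fold in Mbd3abc KO.

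The direction of the members moved with the base composition of their transcripts. Members that rose in Mbd3abc KO had a median transcript GC content of 43.9%, and those that fell 55.8%, against 44.9% and 55.2% over all called genes. In Mbd3cΔN-ab KO the medians were 42.6% for members that rose and 55.8% for those that fell, against 44.1% and 55.7% over all called genes. Across members, Spearman's rho between GC content and deposited log2 fold change was -0.86 in Mbd3abc KO (61 genes) and -0.82 in Mbd3cΔN-ab KO (47 genes). Over all called genes it was -0.68 (8105 genes) and -0.74 (5973 genes). Genes in a library share its preparation and are not independent replicates, so these are descriptions. Called genes were ranked by GC content and cut into 5 bins of like size. In the lowest bin in Mbd3abc KO all 17 members rose, as did 98.4% of all called genes there. In the highest bin all 9 members fell, and 10.4% of all called genes there were higher. In the middle bin 5 of 11 members rose (Brd1, Brd9, Phf10, Smarca2 and Smarcc1), near the 45.0% of all called genes there that were higher. In bin 4, Smarcc2 alone of 8 members rose, beside 20.7% of all called genes. Phf5a alone of 16 members fell in bin 2, where 86.1% of called genes were higher. In Mbd3cΔN-ab KO Smarcc1 alone of 7 members rose in the middle bin (42.3% of all called genes higher). Smarcd3 alone of 7 rose in the highest bin (6.28% higher). The calls of all members named from these bins, in both mutants, were lost without either WT library. Smarcc2 was called in none of 8 refits. The part of GC content in the changes of any member was not tested.

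**Figure D4:**
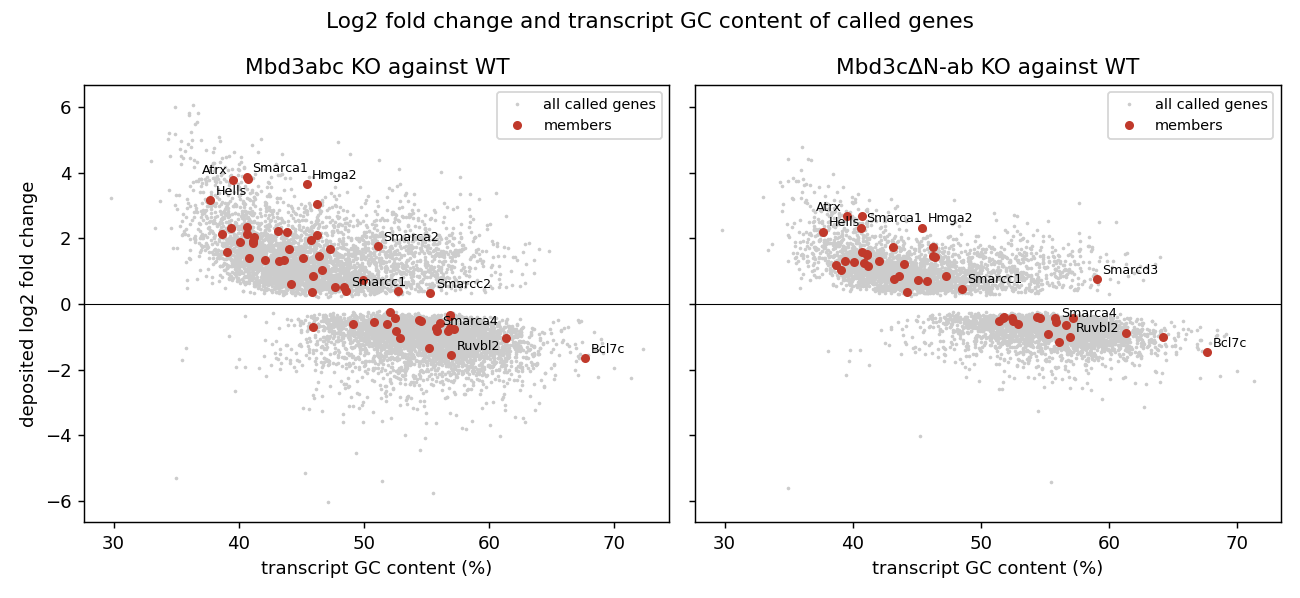
The x axis is transcript GC content in percent and the y axis the deposited log2 fold change of mutant over WT, with all called genes in grey and members in colour, in 1 panel for each strong mutant. Members run from upper left to lower right with the grey cloud: those that rose had a median GC content of 43.9% in Mbd3abc KO and those that fell 55.8%.

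Chromosome and promoter composition were described in the same way. All 5 called members on the X chromosome rose in Mbd3abc KO (Atrx, Hmgb3, Hmgn5, Phf6 and Smarca1), as did all 4 in Mbd3cΔN-ab KO. Of all called X-linked genes, 70.9% and 71.0% were higher, against 51.4% and 50.2% of called genes elsewhere. The called X-linked members had a median transcript GC content of 40.7% and 40.1%. Of members with a RefSeq promoter near the deposited start, 27 that rose in Mbd3abc KO held a median of 22 CG dinucleotides in the 300-base window and 18 that fell held 28.5. Over all called genes the medians were 23 for those that rose and 21 for those that fell. In Mbd3cΔN-ab KO the medians were 19 for 19 members that rose and 30 for 15 that fell, against 23 and 22 over all called genes. The printed Smarca2 promoter, with 29, is among those above the median of the members that rose, and Smarca1, with 9, and Hmga2, with 12, are below it.

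The direct comparison of Mbd3abc KO with Mbd3cΔN-ab KO asked whether the strong mutants differ in the size of these changes. With edgeR's quasi-likelihood test on 5413 genes listed in both tables, 0 of 43 members passed an adjusted p of 0.05, beside 0.185% of all genes (0.0369% higher in Mbd3abc KO and 0.148% lower). At an unadjusted p under 0.05 the count was 21 members, 19 higher in Mbd3abc KO and 2 lower. The smallest adjusted p was 0.0791, for Hmgb2, with a log2 difference of 0.93 ± 0.14 (SE). For Smarca1 the log2 difference was 1.41 ± 0.23 (SE) and for Atrx 1.10 ± 0.18 (SE), each with an edgeR adjusted p of 0.0834. DESeq2 called 8 members higher in Mbd3abc KO (Arid4b, Atrx, Baz1a, Hells, Hmga2, Hmgb2, Smarca1 and Smarca5) among 344 genes in all. Adding the WT libraries to the edgeR fit called 7 (Arid4b, Atrx, Baz1a, Chd1, Hells, Hmgb2 and Smarca1) among 361 genes. Without the second Mbd3abc KO library 1 member was called, Atrx, with an edgeR adjusted p of 0.0435. The median log2 difference was 0.38 over the 43 members and -0.0038 over all genes. Of 27 members that rose in both mutants against WT, 26 were higher in Mbd3abc KO than in Mbd3cΔN-ab KO, the exception being Smarcc1, against 88.7% of 2775 genes that rose in both. Of 16 that fell in both, 15 were lower in Mbd3abc KO, the exception being Chd3, against 2397 of 2624 genes that fell in both. Chd3 had a log2 difference of 0.56 ± 0.21 (SE), with an edgeR adjusted p of 0.180.

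**Figure D5:**
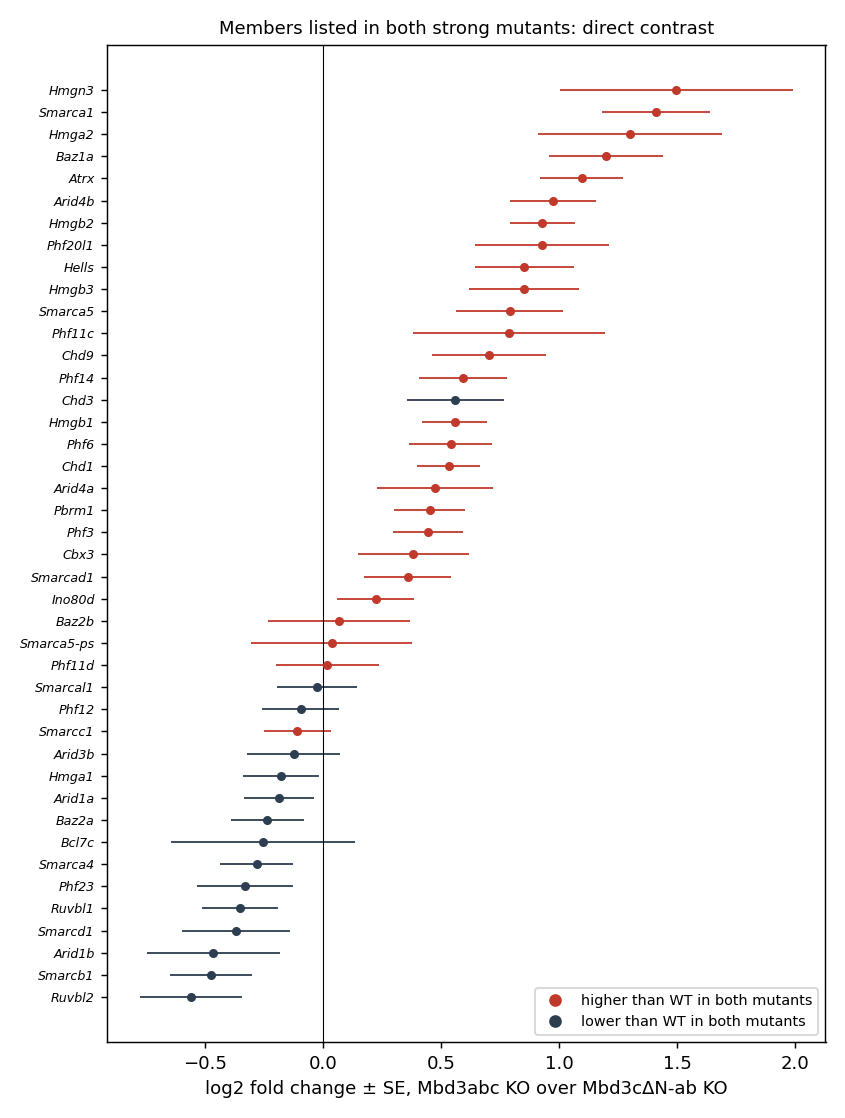
Points give the log2 difference of Mbd3abc KO over Mbd3cΔN-ab KO for the members listed in both tables that are reported by name, with the SE as a bar, coloured by direction against WT, and the vertical line marks no difference. Hmgn3, Smarca1 and Hmga2 lie farthest to the side of Mbd3abc KO, and none passed an adjusted p of 0.05 by edgeR.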

How the data were processed

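Ribosomal RNA-depleted, strand-specific libraries were sequenced from 5 groups of 2. The submitters' processing notes name TopHat2, HOMER, DESeq2 and mm10, and exon reads were counted with HOMER, per the file headers. The authors deposited, per library, a normalized signal (reads scaled within a table), and per gene a log2 fold change with SE, a p-value and an adjusted p-value. The deposited score column, the Wald statistic, was not used. In the tables of Mbd3abc KO and Mbd3cΔN-ab KO 100% of values were whole multiples of a library's step (tolerance 0.006), so reads were recovered (4217977 to 9027663 in listed genes per library). This was not established for the tables of Mbd3ab KO and Mbd3c KO, which are short. Absolute depth is unknown, and depth relative to the first WT library came from the steps.

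Levels are reads divided by size factors recovered from the deposited mean level, and are compared only inside a table. Each fold divides group means. The main calls are the authors' (DESeq2, adjusted p under 0.05), with the number of genes tested recovered from p and adjusted p. Listed genes were tested again with limma 3.58.1 on log2(level + 1), edgeR 4.0.16 with deposited and with TMM scaling, and DESeq2 1.42.0 (R 4.3.3), adjusted over the recovered number tested, and without each library. The Mbd3ab KO table was refitted with limma only. The direct contrast used edgeR's quasi-likelihood test with TMM on recovered reads of genes listed in both tables, and its script was tested on simulated data. GC content came from GENCODE M21 transcripts, matched for 99.7% of listed genes in each long table.

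Members, families and gene lists were chosen with earlier results of these data known. Genes were named by rule (called motors, the 8 largest rises and falls, the highest per length in a family, and those called in at least 3 tables), and the other members to complete each family. Counts cover all members that meet the rule, of which some are not reported here by name.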

Additional observations from a re-analysis of the deposited data

How the results depend on the processing

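The direction of every member was the same in every refit. At an adjusted p of 0.01 the members lower in Mbd3cΔN-ab KO numbered 11. At least 2-fold, 6 were lower in Mbd3abc KO and 4 in Mbd3cΔN-ab KO. Among genes above the median level of the table, 16 members were higher and 17 lower in Mbd3cΔN-ab KO, and 0 were higher in Mbd3ab KO. With limma 15 were lower in Mbd3abc KO, 9 in Mbd3cΔN-ab KO, and 0 were higher in Mbd3ab KO, where Hmga2 passed at an unadjusted p under 0.05. The cause was not tested. Leaving out 1 library at a time gave 23 to 29 higher and 7 to 18 lower in Mbd3abc KO, 15 to 22 higher and 5 to 12 lower in Mbd3cΔN-ab KO, and 0 to 0 higher in Mbd3ab KO. In those refits a group keeps 1 library, whose spread is taken to equal that of the others. In the direct contrast members higher in Mbd3abc KO numbered 8 with DESeq2, 7 with the WT libraries in the fit, and 0 to 1 without each library. Deposited size factors on a shared scale, an alternative chosen after seeing the data, gave 0. No member was called at 0.01 in the Mbd3c KO table, which was not refitted because it lists no member, and edgeR and DESeq2 were not run on the Mbd3ab KO table. No paired analysis was possible because the columns carry no replicate numbers. With 2 libraries a group, calls were lost both among members with few WT reads, such as Smarca2, and among abundant ones, such as Ep400.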
